A study of Mus musculus with 4 samples.

Results

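Transcripts of 10 subunits of Polycomb repressive complex 2 (PRC2), the complex that writes methylation on H3K27, are described here in livers of Utx knockout and wild-type mice. The members are the rows of the deposited table whose gene name is Ezh1, Ezh2, Eed, Suz12, Jarid2, Aebp2, Mtf2, Phf19, Rbbp4 or Rbbp7, 10 of 54149 genes. The knockout group held 2 libraries from adult female mice lacking Utx in the liver, and the wild-type group 2 libraries from females matched for age. All mice were of the C57BL/6 x 129S4/SvJae background, and all had fasted for 16 h before an injection of acetaminophen at 300 mg/kg, a dose toxic to hepatocytes. With no undosed mice, the effect of the drug cannot be measured. Each library was made from pooled liver RNA of 2 mice, and poly(A)-selected RNA was sequenced. Neither the Cre driver nor the time from dose to collection was stated in the labels. Expression is given as FPKM, fragments scaled to gene length and library total.

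PRC2 methylates H3K27 through EZH1 or EZH2, 2 related SET domain enzymes that are active only in a complex with EED and SUZ12. EED binds trimethylated H3K27 and so couples existing marks to new ones, SUZ12 is the scaffold, and RBBP4 and RBBP7 bind histones. Accessory subunits define separate forms of the complex. JARID2 and AEBP2 belong to PRC2.2, and the Polycomb-like proteins MTF2, PHF19 and PHF1 belong to PRC2.1. Utx, listed as Kdm6a, and its paralog Kdm6b encode demethylases that remove the same mark. In the liver, EZH1 is the form kept by cells that do not divide, whereas EZH2 is high in fetal and dividing hepatocytes.

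The promoter windows of the catalytic pair are shown because Ezh1 and Ezh2 encode enzymes of the same reaction but stood at different levels in each library. The sequences are from RefSeq on GRCm38.p6 and run 5′ to 3′ on the strand of the gene, from 250 bases before the start site to 50 bases after it. Capitals mark any match to CCAAT, the letters bound by NF-Y, or to TTTNNCGC, an E2F-like pattern, on either strand. The Ezh1 window lies at chr11:101226414-101226713 and the Ezh2 window at chr6:47594981-47595280, both on the minus strand.
Ezh1: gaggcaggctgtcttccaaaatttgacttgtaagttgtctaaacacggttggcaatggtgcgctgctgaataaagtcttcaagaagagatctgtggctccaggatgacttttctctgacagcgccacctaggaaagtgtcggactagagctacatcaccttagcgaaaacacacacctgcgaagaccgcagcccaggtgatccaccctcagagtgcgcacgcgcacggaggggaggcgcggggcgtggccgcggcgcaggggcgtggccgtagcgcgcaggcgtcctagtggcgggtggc
Ezh2: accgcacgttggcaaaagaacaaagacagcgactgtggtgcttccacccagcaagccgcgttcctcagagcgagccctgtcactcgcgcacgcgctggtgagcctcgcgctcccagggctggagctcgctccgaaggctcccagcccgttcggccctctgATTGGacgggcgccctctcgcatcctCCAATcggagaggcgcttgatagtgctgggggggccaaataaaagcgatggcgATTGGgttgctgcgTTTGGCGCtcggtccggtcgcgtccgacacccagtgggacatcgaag

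Ezh2 held 3 CCAAT matches and 1 E2F-like match, none overlapping another, and the Ezh1 window held none of either. Windows of all 10 members were found in the RefSeq table, and where a gene had several the window nearest the 5′ end listed for the gene was taken. Aebp2 had 3 windows, and Jarid2 and Mtf2 had 2 each. The start site of the window taken for Jarid2 was 1300 bases from that end. The values for members describe only the windows taken. A CCAAT match was present in 6 of the 10 member windows, against 37.4% of all 32817 windows. An E2F-like match was present in 3 of the 10, those of Ezh2, Suz12 and Phf19, against 5.16% of all windows. The AP-1-like pattern TGANTCA (7.81% of all windows) and the cyclic AMP response element TGACGTCA (1.79%) were in 0 of the 10. Bases G and C made up 64.3, 71 and 74.3% of the windows of Ezh2, Suz12 and Phf19. They ran from 48% (Aebp2) to 75.7% (Rbbp7) over the member windows, and the median of all windows was 52.67%. The part of base composition in these counts was not tested. The matches are letters in a window and were not tested as binding sites.

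None of the PRC2 subunits passed the test between genotypes. Of the 10 members, 8 reached the minimum mean of 1 FPKM and were tested, and 0 of 8 had a limma adjusted p under 0.05, against 4.74% of all tested genes (1.60% higher and 3.14% lower in knockout livers). At an unadjusted limma p under 0.05 the count was 1 of 8, Aebp2, against 27.1% of all tested genes. With limma voom on reads recovered from the FPKM, and likewise with only protein-coding genes in the test, Aebp2 passed and no other member did. Among all 11900 tested genes 190 were higher and 374 lower in knockout livers. With the scaling total replaced by the reads recovered per library, 211 were higher and 255 lower.

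The median log2 fold change of the 8 tested members was -0.13, against 0.01 for all tested genes. On the deposited scaling, both knockout pools lay below both wild-type pools for 5 of 8 members, against 29.9% of all tested genes. They lay above them for 1 of 8, against 31.6%. The first count depends on the scaling. With the scaling total replaced by the reads recovered per library, the groups overlapped for Eed, Rbbp4, Rbbp7 and Mtf2. Their log2 fold changes were then -0.09, -0.14, -0.07 and -0.02, with a median of 0.07 over all tested genes. Aebp2 remained lower in both knockout pools, at -0.47. Apart from Aebp2, the 95% confidence intervals of the fold change, which are not adjusted for multiple genes, lay between 0.609 and 1.42 for the tested members. The median absolute log2 fold change of all tested genes was 0.26, and Aebp2 was the only tested member beyond it. In bulk tissue, fewer cells of a type and less RNA per cell cannot be told apart.

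**Figure D1:**
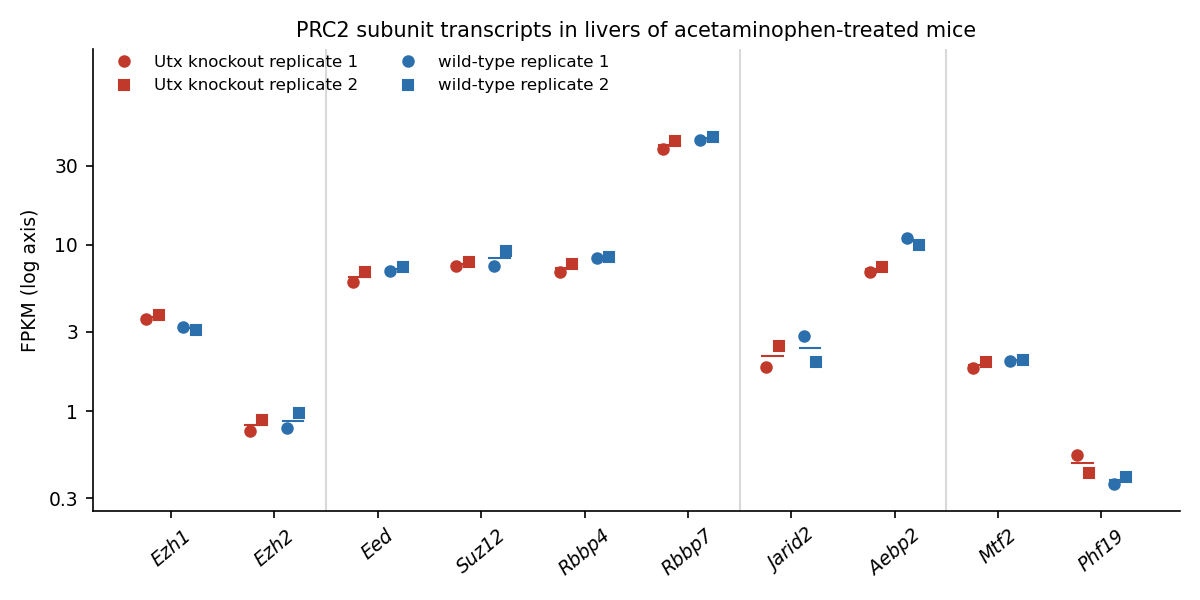
FPKM of the 10 PRC2 subunits in each library on a log axis, with Utx knockout pools in red and wild-type pools in blue, circles for replicate 1, squares for replicate 2 and short lines for group means. Vertical lines separate the catalytic subunits, the other core subunits, the PRC2.2 subunits and the PRC2.1 subunits. Aebp2 shows the widest gap between the groups, and Rbbp7 lies above every other member in each library.

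The libraries held between 16330451 and 17804730 recovered reads. Kdm6a was at 2.195 and 2.122 FPKM in knockout pools and at 3.40 and 3.85 FPKM in wild-type pools (log2 fold change -0.63, limma adjusted p = 0.0715); it passed with limma voom on recovered reads (0.0314) and with protein-coding genes alone (0.0441). Reads were summed over the gene, so loss of single exons is not visible. The lower level in both knockout pools is the only check of the labels. It is a weak check, since 29.9% of all tested genes had that order. Hepatocyte markers were high in every library, with Alb between 21955 and 29597 FPKM, and 0 of 8 passed the test. Neutrophil markers were lower in knockout pools: 4 of 8 tested fell and 0 rose, and the 9 markers summed to 39.3 and 35.5 FPKM in knockout pools and to 119.2 and 180.95 FPKM in wild-type pools. S100a8 and S100a9 no longer passed under 4 of 15 alternatives, and Clec4d and Mmp9 under 6 of 14, among them each left-out library. Ly6g, a defining neutrophil marker, had between 0 and 5 reads in each library. Kupffer cell and macrophage markers summed to 237 and 388 FPKM in knockout pools and to 399.9 and 309.9 FPKM in wild-type pools, with 0 of 10 past the test. Each of the 8 lymphocyte markers had a mean under 1 FPKM. Sinusoidal endothelial markers summed to 52.8 and 55.1 FPKM in knockout pools and to 74.2 and 72.6 FPKM in wild-type pools, with 0 of 7 past the test. Of the stellate cell markers 0 of 6 passed, and of the cholangiocyte markers 1 of 4, Sox9, which fell but no longer passed under 4 of 15 alternatives.

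Of the catalytic subunits, Ezh1 was the more abundant in every library. Ezh1 (ENSMUSG00000006920, chromosome 11, 101191115 to 101226463, minus strand, GRCm38) was at 3.60 and 3.77 FPKM in knockout pools and at 3.22 and 3.07 FPKM in wild-type pools. The knockout pools were the higher ones and the groups did not overlap, and Ezh1 was the only tested member with this order. Its log2 fold change of 0.20 had a 95% confidence interval of -0.11 to 0.51 and did not pass (limma adjusted p = 0.331). These levels rest on 478 and 481 reads in knockout pools and on 405 and 359 reads in wild-type pools.

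Ezh2 (ENSMUSG00000029687, chromosome 6, 47530139 to 47595341, minus strand) was at 0.764 and 0.882 FPKM in knockout pools and at 0.788 and 0.971 FPKM in wild-type pools. The groups overlapped, and each value rests on 89 to 102 reads. Its mean of 0.852 FPKM over the 4 libraries was below the minimum for testing. Without that minimum its log2 fold change was -0.06 (95% confidence interval -0.62 to 0.50, limma adjusted p = 0.902).

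The ratio of Ezh1 to Ezh2 FPKM was 4.71 and 4.27 in knockout pools and 4.08 and 3.16 in wild-type pools. The ratio was thus higher in both knockout pools, by 0.32 on the log2 scale, with an exact two-sided permutation p of 0.333. That is the smallest p that 2 pools against 2 allow, so this design cannot reach 0.05 by that test. The gene lengths behind the FPKM are those of all exons merged, 7440 bases for Ezh1 and 6678 for Ezh2. With the longest coding transcript of GENCODE M21 as the length instead (4207 and 2787 bases), the ratio was 3.48 and 3.15 in knockout pools and 3.01 and 2.33 in wild-type pools. Ezh1 remained the higher of the pair in each library with either length. The longest run of identical bases between the transcripts of the 2 genes was 17.

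**Figure D2:**
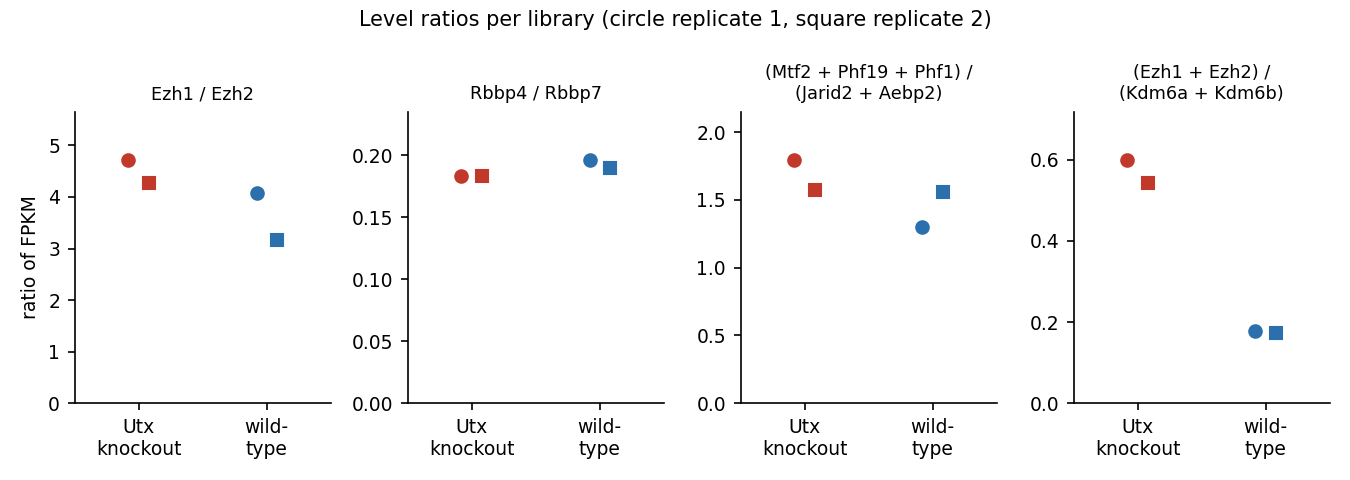
Ratios of FPKM in each library, with Utx knockout pools in red on the left of each panel and wild-type pools in blue on the right. From left to right the panels show Ezh1 over Ezh2, Rbbp4 over Rbbp7, summed PRC2.1 over summed PRC2.2 accessory subunits, and summed methyltransferases over summed demethylases. The last ratio is 0.599 and 0.542 in knockout pools and 0.179 and 0.173 in wild-type pools.

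Set beside the enzymes that remove the mark, the summed FPKM of Ezh1 and Ezh2 was 4.37 and 4.65 in knockout pools and 4.01 and 4.04 in wild-type pools. The summed FPKM of Kdm6a and Kdm6b was 7.29 and 8.59 in knockout pools and 22.5 and 23.4 in wild-type pools. The ratio of methyltransferase to demethylase transcripts was 0.599 and 0.542 in knockout pools and 0.179 and 0.173 in wild-type pools, and most of the demethylase sum came from Kdm6b. Kdm6b fell to 5.10 and 6.47 FPKM in knockout pools, against 19.1 and 19.5 FPKM in wild-type pools (limma adjusted p = 0.0258). It no longer passed under 4 of 15 alternatives, with a limma adjusted p of 0.103 with no filter, 0.0609 without knockout replicate 1, 0.0669 without wild-type replicate 1 and 0.0647 without wild-type replicate 2. The ratio is a description and was not tested. Its demethylase sum includes Kdm6a, the gene knocked out, and reads summed over that gene do not show whether its transcripts were intact. This ratio was computed on the deposited lengths alone.

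None of the 4 other core subunits passed the test. Eed (ENSMUSG00000030619, chromosome 7, 89954654 to 89980983, minus strand) was at 6.02 and 6.86 FPKM in knockout pools and at 6.94 and 7.41 FPKM in wild-type pools. On the deposited scaling the knockout pools were lower without overlap. The gap between the groups was narrower than that between the 2 knockout pools. The log2 fold change was -0.15 (95% confidence interval -0.46 to 0.17, limma adjusted p = 0.469).

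Suz12 (ENSMUSG00000017548, chromosome 11, 79993106 to 80034123, plus strand), the scaffold, was at 7.499 and 7.927 FPKM in knockout pools and at 7.440 and 9.170 FPKM in wild-type pools. Its groups overlapped, since wild-type replicate 1 was the lowest of the 4 libraries and wild-type replicate 2 the highest. The log2 fold change was -0.09 (95% confidence interval -0.46 to 0.27, limma adjusted p = 0.694).

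Rbbp4 and Rbbp7 encode WD40 proteins that also serve in the deacetylase complexes NuRD and SIN3, so their transcripts are not specific to PRC2. Rbbp4 (ENSMUSG00000057236, chromosome 4, 129307100 to 129335370, minus strand) was at 6.90 and 7.68 FPKM in knockout pools and at 8.39 and 8.44 FPKM in wild-type pools. On the deposited scaling the knockout pools were lower without overlap. The log2 fold change was -0.20 (95% confidence interval -0.48 to 0.09, limma adjusted p = 0.314).

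Rbbp7 (ENSMUSG00000031353, chromosome X, 162760402 to 162779092, plus strand) was at 37.7 and 41.9 FPKM in knockout pools and at 42.8 and 44.4 FPKM in wild-type pools. These groups did not overlap, but knockout replicate 2 was within 1 FPKM of wild-type replicate 1, and the log2 fold change was -0.13 (95% confidence interval -0.43 to 0.17, limma adjusted p = 0.491). A processed pseudogene with 97.1% identity to Rbbp7 over 942 bases, Gm6382, was listed with 48 and 34 reads in knockout pools and 46 and 35 in wild-type pools, beside 1954 to 2107 reads of Rbbp7. Rbbp7 also overlaps the opposite-strand gene Txlng by 174 bases, and without strand information reads there cannot be told apart.

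The ratio of Rbbp4 to Rbbp7 FPKM was 0.183 in each knockout pool, and 0.196 and 0.190 in wild-type pools. It was lower in both knockout pools, by a log2 difference of -0.07 (exact two-sided permutation p = 0.333, the smallest this design allows). Rbbp4 has a merged length of 8744 bases against 4407 for its longest coding transcript, and with the transcript lengths the ratio was 0.280 in each knockout pool and 0.2999 and 0.2905 in wild-type pools.

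Aebp2, the zinc finger subunit of PRC2.2, showed the largest difference of the 10. Aebp2 (ENSMUSG00000030232, chromosome 6, 140622663 to 140678472, plus strand) was at 6.85 and 7.38 FPKM in knockout pools and at 10.98 and 10.01 FPKM in wild-type pools. Both knockout pools were well below both wild-type pools, and the gap was wider than the difference within either group. The log2 fold change was -0.53 with an SE of 0.11 and a 95% confidence interval of -0.82 to -0.24, and the mean was 7.12 ± 0.377 FPKM in knockout pools and 10.5 ± 0.680 FPKM in wild-type pools (SD, n = 2 each). The unadjusted limma p was 0.00633 and the adjusted p 0.0716, short of the threshold of 0.05.

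Aebp2 rests on 1203 and 1247 reads in knockout pools and on 1828 and 1551 reads in wild-type pools. Exact Poisson 95% intervals, which cover counting error only, ran up to 7.81 FPKM in knockout pools and from 9.52 FPKM in wild-type pools. The adjusted p was 0.0416 with limma voom on recovered reads and 0.0488 with protein-coding genes alone, and it ranged up to 0.268 over the 15 alternatives, in all of which Aebp2 was lower in knockout pools. A larger absolute log2 fold change was found for 22.5% of all tested genes. The sums of neutrophil and of sinusoidal endothelial markers also did not overlap between the genotypes, with the knockout pools lower, and their part in this difference was not tested. A processed pseudogene of Aebp2, Gm14240, was listed at 0 reads in each library.

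Jarid2, the other PRC2.2 subunit, which helps recruit and stimulate the complex, varied within genotypes more than between them. Jarid2 (ENSMUSG00000038518, chromosome 13, 44729474 to 44921643, plus strand) was at 1.85 and 2.47 FPKM in knockout pools and at 2.84 and 1.97 FPKM in wild-type pools. The groups overlapped, and the log2 fold change was -0.12 (95% confidence interval -0.72 to 0.48, limma adjusted p = 0.763). In both groups the replicate pools differed beyond counting error: the exact Poisson 95% interval of wild-type replicate 1 began at 2.59 FPKM and that of wild-type replicate 2 ended at 2.21 FPKM. The order of the 4 libraries by Jarid2 was that of the summed Kupffer cell and macrophage markers, with wild-type replicate 1 highest and knockout replicate 1 lowest. That match was not a planned comparison and was found after the values were seen. The part of Kupffer cells and macrophages in the spread of Jarid2 was not tested.

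**Figure D3:**
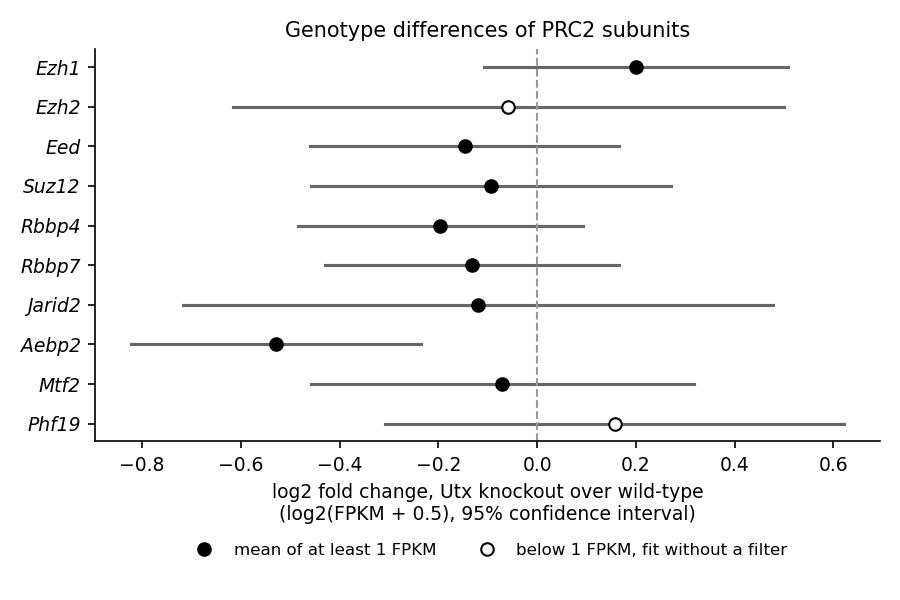
Log2 fold change of each PRC2 subunit between Utx knockout and wild-type livers, with 95% confidence intervals from limma. Positive values are higher in knockout livers, and open circles mark Ezh2 and Phf19, which were below 1 FPKM and come from the fit without a filter. The interval of Aebp2 runs from -0.82 to -0.24 and does not reach 0, and those of the other 9 subunits do.

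The Polycomb-like subunits of PRC2.1, which bind DNA rich in unmethylated CpG and methylated H3K36, were low in these livers except for Phf1. Mtf2 (ENSMUSG00000029267, chromosome 5, 108065674 to 108109004, plus strand) was at 1.82 and 1.99 FPKM in knockout pools and at 2.00 and 2.04 FPKM in wild-type pools. The knockout pools were the lower ones, and knockout replicate 2 nearly coincided with wild-type replicate 1. The log2 fold change was -0.07 (95% confidence interval -0.46 to 0.32, limma adjusted p = 0.786). Transcripts of Mtf2 and of Tmed5, a gene on the opposite strand with 2643 to 3415 reads per library, share 396 bases, and reads there cannot be told apart without strand information.

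Phf19 (ENSMUSG00000026873, chromosome 2, 34893757 to 34914026, minus strand) was the lowest member, at 0.546 and 0.428 FPKM in knockout pools and at 0.364 and 0.404 FPKM in wild-type pools. Both knockout pools were higher, but the values rest on 49 and 37 reads in knockout pools and on 31 and 32 reads in wild-type pools. The exact Poisson 95% intervals of all 4 libraries overlapped, from 0.247 FPKM at the lowest to 0.721 FPKM at the highest. Without the minimum of 1 FPKM the log2 fold change was 0.16 (95% confidence interval -0.31 to 0.62, limma adjusted p = 0.666).

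The other genes listed as PRC2 partners were Phf1, Epop, Lcor and Lcorl. Of the 3 that were tested, 0 passed. Phf1, the third Polycomb-like protein, was at 13.2 and 13.1 FPKM in knockout pools and at 15.6 and 16.2 FPKM in wild-type pools (log2 fold change -0.26, limma adjusted p = 0.184). Epop, which links PRC2.1 to elongin, was at 3.35 and 3.02 FPKM in knockout pools and at 1.38 and 2.31 FPKM in wild-type pools (log2 fold change 0.68, adjusted p = 0.157). Lcor, a gene that also encodes the PRC2 partner PALI1, was at 0.883 and 1.42 FPKM in knockout pools and at 1.43 and 1.32 FPKM in wild-type pools, and Lcorl had a mean under 1 FPKM.

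The summed FPKM of Mtf2, Phf19 and Phf1 was 1.79 and 1.58 times that of Jarid2 and Aebp2 in knockout pools, and 1.30 and 1.56 times in wild-type pools. Both knockout pools had the higher ratio, by 0.24 on the log2 scale (exact two-sided permutation p = 0.333, the smallest this design allows). Knockout replicate 2 and wild-type replicate 2 nearly coincided, however. Most of the first sum was Phf1 (mean 14.5 FPKM, beside 1.96 for Mtf2 and 0.435 for Phf19). Most of the second was Aebp2 (8.81, beside 2.28 for Jarid2). The ratio is thus mostly that of Phf1 to Aebp2 and is not independent of the lower Aebp2 in knockout pools. Which transcript sum was the higher depended on the length used: with the longest coding transcripts the ratio was 1.11 and 0.982 in knockout pools and 0.800 and 0.958 in wild-type pools. The listed length of Phf1 differs from GENCODE M21, whereas the lengths and coordinates of all 10 members were the same in both.

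By mean FPKM over the 4 libraries, the order of the members was Rbbp7, Aebp2, Suz12, Rbbp4, Eed, Ezh1, Jarid2, Mtf2, Ezh2 and Phf19. On the deposited lengths the place of Aebp2 differed between the groups. In both knockout pools Aebp2 was below Suz12 and Rbbp4, and in both wild-type pools it was above them. In knockout replicate 1 Aebp2 and Rbbp4 nearly coincided, at 6.85 and 6.90 FPKM. Rbbp7, with a mean of 41.7 FPKM, was the highest member in each library, and Rbbp4 was above Eed in each library although their ranges overlapped. The order of Suz12 and Rbbp4 and that of Jarid2 and Mtf2 differed between libraries. The ranges of Eed and Ezh1, of Ezh1 and Jarid2, of Mtf2 and Ezh2, and of Ezh2 and Phf19 did not overlap. Lengths matter to this order, because the merged exon length was between 1.13 times (Suz12) and 2.40 times (Ezh2) that of the longest coding transcript. Rescaled to the longest coding transcript, Ezh2 averaged 2.04 FPKM and Ezh1 6.04 FPKM. On that scale Aebp2 was at 11.4 and 12.3 FPKM in knockout pools and at 18.2 and 16.6 FPKM in wild-type pools, and Rbbp4 at 13.7 and 15.2 FPKM in knockout pools and at 16.7 and 16.7 FPKM in wild-type pools. Rbbp4 was thus the higher of that pair in both knockout pools, and the wild-type pools did not share an order. Rescaled in the same way, Suz12 was at 8.48 and 8.96 FPKM in knockout pools and at 8.41 and 10.4 FPKM in wild-type pools. Suz12 was then below Aebp2 in each library.

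Proliferation genes, many of them E2F targets as Ezh2 is, were mostly low. Of 25 listed, 11 reached a mean of 1 FPKM, and 0 rose and 0 fell (median log2 fold change 0.36, against 0.01 for all tested genes). The log2 fold change was above 0 for 8 of the 11, among them the replicative helicase genes Mcm2 to Mcm7, named after their values were seen. It was below 0 for the other 3, among them Pcna and Rrm2. Rrm2 was at 2.29 and 1.81 FPKM in knockout pools and at 4.61 and 3.12 FPKM in wild-type pools (log2 fold change -0.76, limma adjusted p = 0.120). Knockout replicate 2 was the highest library for each of Mcm2 to Mcm7, and the groups overlapped for Mcm3, Mcm5 and Mcm6. For Mcm4 knockout replicate 2 stood apart, with 2.36 and 6.71 FPKM in knockout pools and 2.18 and 1.38 FPKM in wild-type pools. The 25 genes summed to 40.8 and 68.6 FPKM in knockout pools, the lowest and highest sums, against 59.4 and 55.3 FPKM in wild-type pools. Pcna, the replication clamp, was their most abundant gene, at 17.3 and 25.9 FPKM in knockout pools and at 30.7 and 33.7 FPKM in wild-type pools (limma adjusted p = 0.173). Mki67, the classic marker of cycling cells, had 18 and 14 reads in knockout pools and 18 and 25 reads in wild-type pools.

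Polycomb repressive complex 1 (PRC1), which reads H3K27 trimethylation through its CBX subunits and ubiquitinates H2A, had 21 of 25 listed subunits tested. Of these 0 rose and 0 fell, and the median log2 fold change was 0.06. Phc2, the most abundant, was at 9.12 and 12.0 FPKM in knockout pools and at 21.02 and 18.02 FPKM in wild-type pools (log2 fold change -0.86, limma adjusted p = 0.0661). Phc2 passed as lower under 4 of 15 alternatives. Of the 7 tested genes that remove or oppose H2A ubiquitination, 0 passed (median -0.05), and Bap1, the deubiquitinase, was at 11.9 and 11.2 FPKM in knockout pools and at 12.1 and 13.1 FPKM in wild-type pools. Of 18 tested subunits of NuRD, SIN3 and other complexes that share RBBP4 or RBBP7, 0 passed (median -0.03). The 2 listed subunits of CAF-1, Chaf1a and Chaf1b, had means under 1 FPKM and were not tested. Chaf1a had 51 and 58 reads in knockout pools and 23 and 17 reads in wild-type pools, and without the minimum its limma adjusted p was 0.208. Of all listed subunits of complexes that share RBBP4 or RBBP7, Mbd3, a part of NuRD, was the most abundant. Its level was 43.6 and 54.0 FPKM in knockout pools and 50.5 and 42.8 FPKM in wild-type pools.

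**Figure D4:**
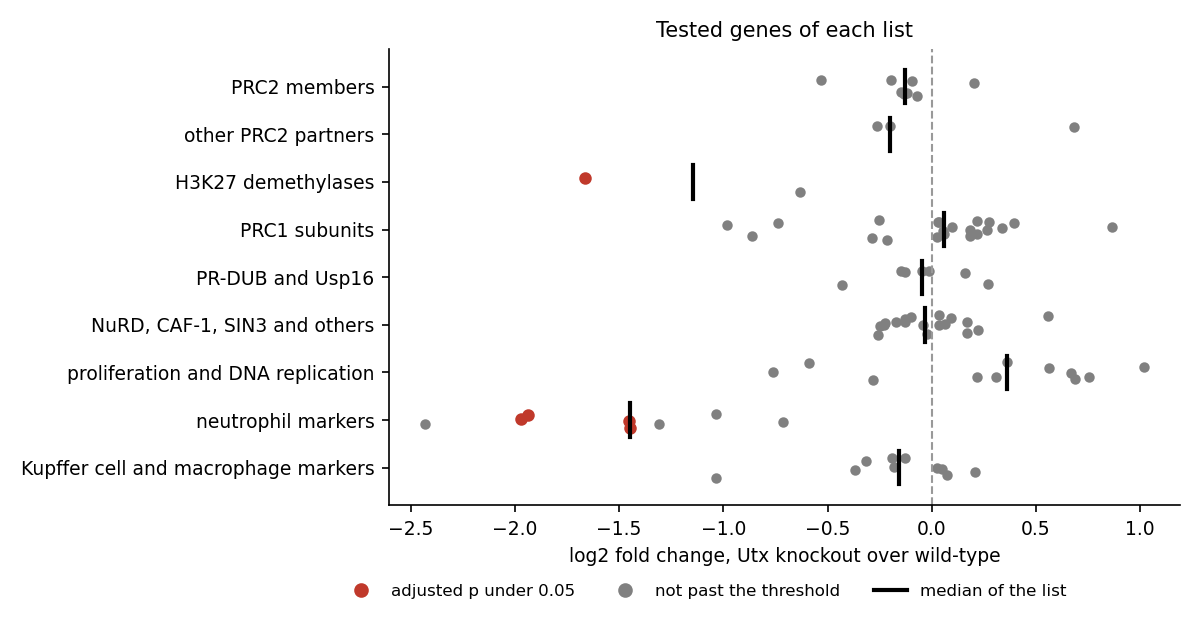
Log2 fold change of every tested gene of 9 lists between Utx knockout and wild-type livers, with red points for a limma adjusted p under 0.05, grey points for the rest and a black bar at the list median. The median of the 8 tested PRC2 members is -0.13, and the red points lie among the H3K27 demethylases and neutrophil markers.

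Hox genes and the Ink4 locus, classic targets of Polycomb silencing, were near or at 0 in both genotypes. Of 41 listed genes, 22 had 0 reads in all 4 libraries and 1, Cdkn2b, reached a mean of 1 FPKM. Cdkn2b, which encodes the cell cycle inhibitor p15, was at 1.05 and 1.59 FPKM in knockout pools and at 1.66 and 1.60 FPKM in wild-type pools (limma adjusted p = 0.521). The summed FPKM of the 41 genes was 3.18 and 4.39 in knockout pools and 4.60 and 4.52 in wild-type pools.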

How the data were processed

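The authors deposited 1 table of FPKM for 54149 genes, with merged exon lengths and coordinates per the file headers. The submitters' processing notes name HISAT2 2.0.5 as aligner and mm10, or GRCm38.p6, as build. They name no counting program, annotation release or strand setting. Whole reads were recovered from FPKM and length, with 100% of values whole within 0.01 read; the totals implied by the FPKM were 1.00, 1.05, 1.02 and 0.943 times the listed reads (knockout, then wild-type pools). The main test was limma 3.58.1 (R 4.3.3) on log2 values after adding 0.5 FPKM, with a trended eBayes prior and two-sided p-values. Adjustment was by Benjamini-Hochberg over the 11900 genes whose mean reached 1 FPKM, at a threshold of 0.05. There were 2 residual and 2.59 prior degrees of freedom. Fold changes on this scale understate those of low genes. Pools are the replicates, so a p-value sets the group difference against an estimated spread between pools. The prior draws that estimate partly from other genes. Replicate pools differed beyond counting noise.

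The 10 members and the gene lists were chosen with earlier results of these data known. Beside the members and Kdm6a, the rule named the members of each list past the threshold (up to 4) and its most abundant member. The remaining partners, Mki67, the Mcm genes, Rrm2, Chaf1a, Chaf1b and Ly6g were added after their values were seen. Marker lists are given as counts past the threshold, and those of neutrophils, Kupffer cells and endothelium also as sums. Of 5 listed PRC2 partners, 4 were found in the table. Coding transcript lengths came from GENCODE M21, near-copies from blastn 2.17.0 and promoters from RefSeq (GRCm38.p6). The limma test was also run on simulated reads that had the same spread beyond counting noise for every gene. That run does not cover spread that differs between genes. Figures were drawn with matplotlib 3.10.9. Alternatives covered the pseudocount, filter, scaling, limma variant, recovered reads, biotypes, a replicate block and leaving out each library; a minimum of 50 reads and transcript lengths were added after seeing the data. Sample columns left out numbered 0.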

Additional observations from a re-analysis of the deposited data

How the results depend on the processing

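Of the PRC2 members 0 passed in the test as reported, and 1, Aebp2, passed with limma voom on recovered reads and with protein-coding genes alone; without each library in turn the count was 0. Over all genes, 564 passed, against 0 with no filter (26643 genes), 280 with eBayes without a trend, 1103 with limma voom, 1014 with protein-coding genes alone, 310 with the replicate number as a block and 867 with a minimum of 50 reads on average, an alternative chosen after seeing the data. Without knockout replicate 1 the count was 5, without knockout replicate 2 it was 234, without wild-type replicate 1 it was 30 and without wild-type replicate 2 it was 0; the lone library of a group is then assumed to vary like the other group. The cause of these changes was not tested. The labels do not say that replicate numbers pair the pools, and same-numbered pools had deviations correlated at -0.14; under the block 0 members passed.

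Of 141 alternative values of the members' log2 fold changes, 134 kept their direction and side of the threshold, 2 newly passed and 5 reversed, all when a library was left out. Leaving out each library gave ranges of -0.154 to 0.037 for Ezh2, -0.236 to 0.048 for Suz12 and -0.337 to 0.097 for Jarid2. The same ranges were -0.091 to 0.214 for Mbd3, -0.31 to 0.12 for Alb, -0.15 to 0.14 for Nkg7, -0.21 to 0.14 for Dcn and -0.12 to 0.57 for Sprr1a. Rescaled to recovered reads, Nkg7 was at 0.039 and Dcn at 0.025. Of 277 alternative values of the other named genes, 232 kept their direction and side of the threshold, 28 no longer passed, 6 newly passed and 11 reversed. S100a8 and S100a9 were lost with no filter (adjusted p = 0.103 each) and without knockout replicate 1, knockout replicate 2 or wild-type replicate 2. Clec4d and Mmp9 were lost with no filter, without each library and with the replicate block (adjusted p = 0.0566 and 0.0716). With 0.5 FPKM added, the log2 differences of the 3 level ratios were 0.26, -0.06 and 0.23, in the direction reported; transcript lengths cannot change those of the single-gene ratios. With 2 pools a group, intervals are wide, and Ezh2 and Phf19, with 31 to 102 reads per library, are limited by depth; their alternatives were run without a filter.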
